A study of Sus scrofa with 9 samples.

Results

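The EGF receptor family of pig valvular interstitial cells was described here through 9 genes, of which 3 encode receptors (EGFR, ERBB2 and ERBB3) and 6 encode ligands (AREG, EREG, BTC, HBEGF, TGFA and NRG1). The genes were taken by symbol from a table of 19535 genes. The filter on low counts kept 8 of the 9 among 13662 genes tested, and TGFA did not pass it. EGFR and ERBB2 were the most abundant of these transcripts in the control and OIM libraries. With bFGF, the mean level of AREG rose from 0.405 to 27.7 CPM (read counts scaled by library size) and that of EREG from 0.389 to 17.1 CPM, while ERBB2 fell from 36.4 to 24.3 CPM.

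Porcine valvular interstitial cells (PVICs), the fibroblast-like cells that maintain the valve leaflet, came from the aortic valves of wild-type pigs 4 to 5 months old. The labels describe their isolation by collagenase after the endothelial surface had been wiped off. The control group (NC) was kept in DMEM, the OIM group in osteogenic medium, which holds ascorbic acid at 50 µg/mL, phosphate at 2 mmol/L as the sodium salt, and insulin, and the bFGF group in the same osteogenic medium with 50 ng/mL bFGF, each for 3 days by the labels. No library received bFGF without OIM, and the labels do not say whether the 3 libraries of a group came from separate pigs or cultures, so that p-values measure the spread between these libraries, which may be technical.

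The libraries held 57075793 to 64723837 gene counts in the control group, 57682710 to 67371523 in the OIM group and 46773376 to 48270827 in the bFGF group. OIM replicate 2 stood apart from the other OIM libraries, with a mean chi-square per gene of 19.0 and 19.1 against them, where these differed from each other by 5.87. It also read lower for smooth muscle genes, such as MYH11 at 182 CPM against 325 and 337. Without it, 1 member was higher and 1 lower between OIM and control, and 5 were higher and 1 lower between bFGF and OIM, as with it. The summed level of 12 valve interstitial markers was 65700 to 71100 CPM in the control, 62300 to 65100 in OIM and 39300 to 39700 in bFGF. COL1A1, the main fibrillar collagen among them, had a mean of 25000 CPM in OIM and 9890 CPM in bFGF, whereas VIM, a mesenchymal filament, had 5700 and 9010 CPM. Epithelial markers summed to at most 0.422 CPM in any library, and CDH1, KRT18, KRT5 and CLDN3 were at or below 3 counts in all 9 libraries.

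The receptors of this family are tyrosine kinases that pair when a ligand binds. EGFR binds EGF, TGFA, AREG, EREG, BTC and HBEGF, ERBB3 and ERBB4 bind neuregulins, and BTC, EREG and HBEGF can also bind ERBB4. ERBB2 has no known soluble ligand and acts as the preferred partner of the other receptors, while the kinase of ERBB3 is weak. The ligands are made as membrane-anchored precursors and are released by metalloproteases such as ADAM17. In the developing heart, HBEGF and EGFR signalling limits the growth of the valves, and NRG1 with ERBB2 and ERBB4 is needed for trabeculation.

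What makes the ligands one family is the EGF module, a short fold closed by 6 cysteines. The coding sequences of that module were read from the pig assembly Sscrofa11.1 with the RefSeq annotation. They are shown for the 5 ligands among the members that passed the filter, so that the spacing of the cysteines can be compared among them. Each runs 5′ to 3′ on the coding strand from the first to the last cysteine codon, and capitals mark the 6 cysteine codons.
AREG: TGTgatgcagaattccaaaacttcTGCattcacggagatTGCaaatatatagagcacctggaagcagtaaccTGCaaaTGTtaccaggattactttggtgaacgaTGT
EREG: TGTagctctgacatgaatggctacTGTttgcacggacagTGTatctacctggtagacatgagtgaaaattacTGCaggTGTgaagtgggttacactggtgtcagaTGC
BTC: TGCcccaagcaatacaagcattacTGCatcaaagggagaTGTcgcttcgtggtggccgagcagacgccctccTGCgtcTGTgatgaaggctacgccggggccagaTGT
HBEGF: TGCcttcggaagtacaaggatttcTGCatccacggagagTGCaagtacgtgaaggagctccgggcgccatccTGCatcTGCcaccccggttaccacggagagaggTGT
NRG1: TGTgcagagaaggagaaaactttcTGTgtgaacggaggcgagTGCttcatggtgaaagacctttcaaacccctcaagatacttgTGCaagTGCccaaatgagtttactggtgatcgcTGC
In AREG, EREG, BTC and HBEGF the cysteine codons stood 7, 4, 10, 1 and 8 codons apart, which gives a module of 36 codons. The same spacing was found in TGFA and in EPGN, another ligand of the family. In NRG1 the gaps were 7, 5, 13, 1 and 8 codons, for a module of 40 codons. The ligands EGF, NRG2 and NRG4, which are no members, had gaps of 7, 5, 10, 1 and 8 codons and a module of 37. The NRG1 sequence shown is carried by 7 of its 12 annotated transcripts. Every module was split between 2 exons. Base for base, the module of AREG was 59.3% identical to that of HBEGF and 53.7% identical to that of EREG, over 108 bases.

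The module of AREG lies between positions 70422265 and 70423089 of chromosome 8 and that of EREG between 70365778 and 70366451, both on the plus strand. That of BTC lies on the minus strand of the same chromosome, between 70656273 and 70661513. The modules of HBEGF (chromosome 2, 142105470 to 142110998) and NRG1 (chromosome 15, 52651380 to 52663460) are on minus strands too. These intervals include the intron within each module.

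EGFR, the receptor of most of these ligands, was the most abundant receptor transcript and moved little. It lies on chromosome 9 from 139302410 to 139474632 on the plus strand. Its level was 172, 179 and 171 CPM in the control libraries, 168, 178 and 165 CPM in OIM, and 150, 158 and 149 CPM in bFGF. Control and OIM overlapped, and the 3 bFGF libraries were below all others. The log2 fold change was -0.16 (SE 0.040, edgeR quasi-likelihood adjusted p = 0.00124) between bFGF and OIM, which is under the limit of 0.5 set for a call, and it turned to 0.06 when libraries were scaled by their totals alone. A non-coding gene, LOC110255552, overlaps EGFR on the other strand, and none of its 3 annotated transcripts had an estimated count above 0.524 in any library.

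ERBB2, the shared partner receptor (chromosome 12, 22591621 to 22621384, minus strand), fell with bFGF. It was at 38.6, 41.9 and 36.7 CPM in the control, at 36.8, 35.5 and 36.8 CPM in OIM, and at 24.4, 22.9 and 25.7 CPM in bFGF. The bFGF libraries stood apart from both other groups, which overlapped each other. The log2 fold change against OIM was -0.58 (SE 0.063, edgeR adjusted p = 7.66e-08), and with library totals alone it was -0.36, no longer past the fold limit. Against the control it was -0.68 (SE 0.063, edgeR adjusted p = 6.35e-09), or -0.46 with library totals alone. In bulk RNA, fewer cells of a type and less RNA per cell cannot be told apart, here and in the results that follow.

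ERBB3, the neuregulin receptor with a weak kinase (chromosome 5, 21474218 to 21495040, plus strand), was the one receptor called between OIM and control. Its level was 4.62, 4.55 and 4.20 CPM in the control, 2.73, 3.24 and 2.26 CPM in OIM, and 3.19, 3.50 and 3.73 CPM in bFGF. All 3 OIM libraries were below all 3 control libraries, and the bFGF libraries lay below the control but overlapped OIM. The decrease in OIM was called, at a log2 fold change of -0.70 (SE 0.16, edgeR adjusted p = 0.00512). Between bFGF and OIM the log2 fold change was 0.34 (SE 0.16, edgeR adjusted p = 0.0731), which was not called, and it was called at 0.56 (adjusted p = 0.00499) with library totals alone. Between bFGF and control it was -0.36 (edgeR adjusted p = 0.0478), under the fold limit.

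AREG, which encodes amphiregulin, a ligand of EGFR, had the largest change among the 8 genes tested. It read 0.349, 0.346 and 0.285 CPM in the control libraries, 0.517, 0.507 and 0.193 CPM in OIM, and 24.8, 26.4 and 31.8 CPM in bFGF. These values rest on 17 to 21 counts per library in the control, 11 to 33 in OIM and 1330 to 1654 in bFGF. Control and OIM overlapped, and the lowest bFGF library was far above the highest of the others. The rise over OIM was 67.5-fold (log2 6.08, SE 0.19, edgeR adjusted p = 3.57e-16), the eighth largest increase of the 13662 genes tested. Over the control it was 84.3-fold (log2 6.40, SE 0.19, edgeR adjusted p = 2.34e-16).

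EREG, which encodes epiregulin, a ligand of EGFR and ERBB4, followed the same course. It was at 0.239, 0.363 and 0.486 CPM in the control, at 0.258, 0.752 and 0.158 CPM in OIM, and at 15.8, 15.9 and 19.5 CPM in bFGF. In OIM the counts were 14, 49 and 9, and the second OIM library alone exceeded all control libraries. The rise over OIM was 42.0-fold (log2 5.39, SE 0.27, edgeR adjusted p = 6.88e-13), and the log2 value was 6.37 without OIM replicate 2. Over the control the rise was 46.4-fold (log2 5.54, SE 0.28, edgeR adjusted p = 4.99e-13).

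BTC, which encodes betacellulin, a ligand of EGFR and ERBB4, was the one ligand called between OIM and control. Its level was 1.39, 1.45 and 1.32 CPM in the control, 2.99, 3.38 and 3.47 CPM in OIM, and 8.35, 10.2 and 9.08 CPM in bFGF. No library of any group overlapped another group. OIM raised BTC 2.36-fold (log2 1.24, SE 0.15, edgeR adjusted p = 1.09e-05). It was 2.81-fold higher with bFGF than with OIM alone (log2 1.49, SE 0.13, edgeR adjusted p = 5.12e-09) and 6.63-fold higher than in the control (edgeR adjusted p = 1.51e-12). The first 2 of these comparisons share the OIM libraries.

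HBEGF, the heparin-binding ligand of EGFR and ERBB4 (chromosome 2, 142102455 to 142115192, minus strand), was the most abundant ligand transcript per kilobase in the control and OIM groups. It was at 3.14, 2.92 and 2.98 CPM in the control, at 3.12, 4.02 and 3.54 CPM in OIM, and at 7.87, 8.63 and 7.91 CPM in bFGF. Control and OIM overlapped, and all bFGF libraries were higher. The rise over OIM was 2.28-fold (log2 1.19, SE 0.13, edgeR adjusted p = 1.03e-07).

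NRG1, the neuregulin that binds ERBB3 and ERBB4, spans a long locus on chromosome 15 (52625550 to 53688003, minus strand), and its counts sum over all isoforms. It was at 3.96, 2.71 and 3.45 CPM in the control, at 3.06, 2.50 and 3.13 CPM in OIM, and at 5.91, 5.31 and 6.85 CPM in bFGF. The bFGF libraries were above all others, which overlapped. The rise over OIM was 2.08-fold (log2 1.06, SE 0.16, edgeR adjusted p = 1.07e-05), and over the control 1.79-fold (edgeR adjusted p = 0.000126).

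TGFA, the transforming growth factor that binds EGFR (chromosome 3, 71948232 to 72054257, plus strand), was hardly counted. It had 4, 2 and 0 counts in the control, 0, 1 and 1 in OIM, and 0, 1 and 7 in bFGF. One bFGF library alone exceeded the control, and a difference was not detectable at this depth.

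**Figure D1:**
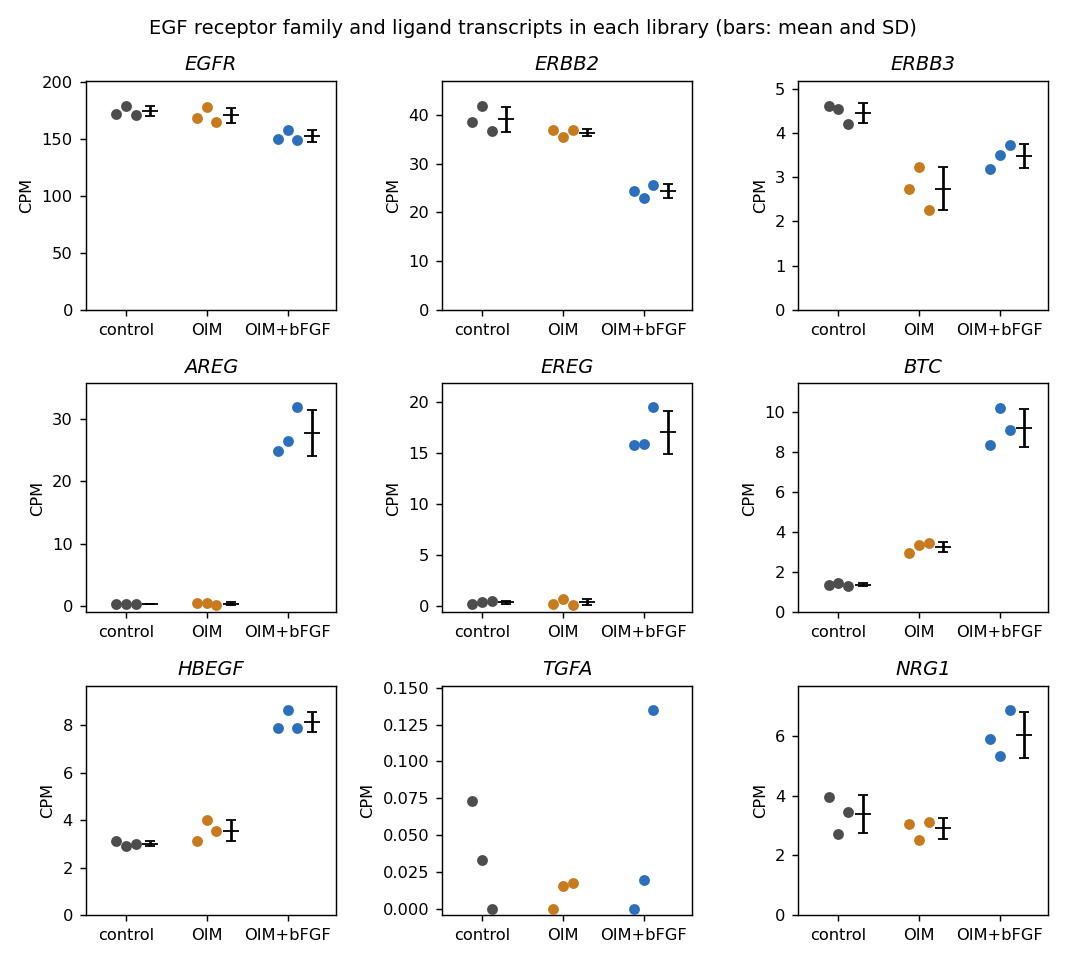
Level of each of the 9 genes in CPM on a linear axis, with 1 point per library, and the mean and SD of 3 libraries beside the points; TGFA, which failed the filter, has points only. AREG and EREG stand near 0 in the control and OIM libraries and at 24.8 to 31.8 and 15.8 to 19.5 CPM with bFGF. BTC is higher in OIM than in the control and highest with bFGF, and ERBB2 is lower with bFGF.

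Between OIM and control, 1 member was higher (BTC) and 1 was lower (ERBB3), against 1.49% and 0.864% of all genes tested. Between bFGF and OIM, 5 members were higher (AREG, EREG, BTC, HBEGF and NRG1) and 1 was lower (ERBB2), against 17.7% and 18.4% of all genes. Between bFGF and control, AREG, EREG, BTC, HBEGF and NRG1 were again higher (5 members) and ERBB2 lower (1 member), against 18.9% and 20% of all genes. Each pair of these comparisons shares a group of libraries.

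**Figure D2:**
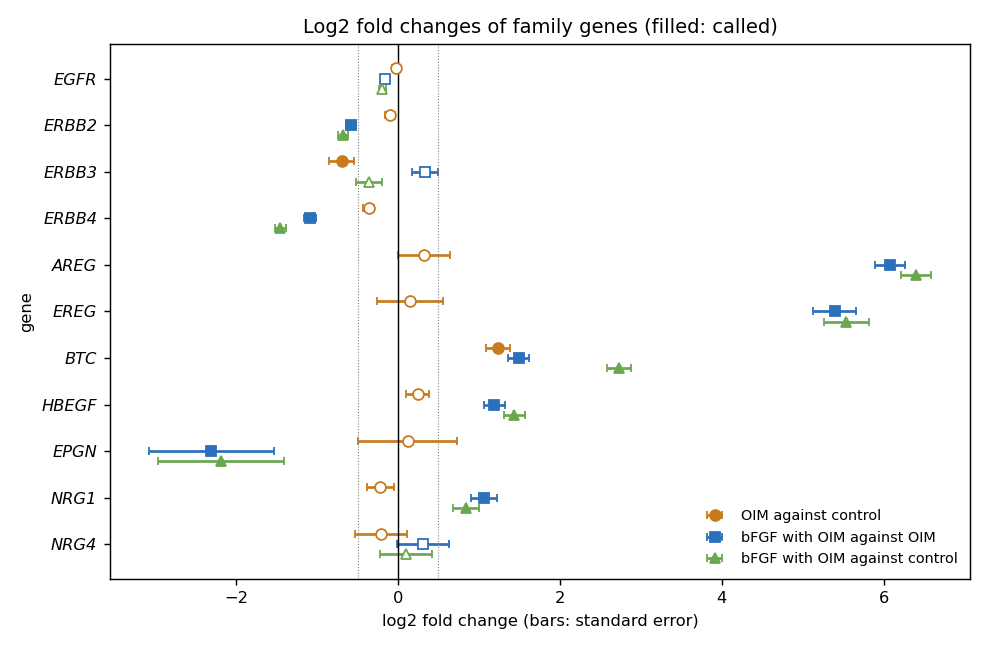
Log2 fold change with its standard error for the 8 tested members and for ERBB4, EPGN and NRG4 in the 3 comparisons; filled symbols are called (adjusted p at most 0.05 and a log2 fold change beyond the dotted lines at 0.5 either way). AREG (6.08) and EREG (5.39) lie far to the right of the other ligands in the comparison of bFGF with OIM, and ERBB2 (-0.58) and ERBB4 (-1.09) to the left of 0.

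Levels of different genes were compared per kilobase of annotated exon, as CPM divided by exon length (RPKM). In the control the order was EGFR (34.6 RPKM), ERBB2 (7.98), ERBB4 (2.46), HBEGF (1.14), ERBB3 (0.803) and NRG4 (0.743), followed by BTC (0.296), AREG (0.270), NRG1 (0.178), EPGN (0.0868) and EREG (0.0823), with NRG2, EGF, TGFA and NRG3 below. ERBB3 and NRG4 overlapped in that group, as did BTC and AREG, and each gene from EPGN down with the next. With bFGF, AREG stood at 22.9 RPKM (20.5 to 26.3), next to EGFR at 30.3 RPKM (29.6 to 31.4) and above ERBB2 at 4.97 RPKM, and no ranges overlapped among EGFR, AREG, ERBB2, EREG (3.87), HBEGF (3.08) and BTC (1.96). In OIM the ranges of ERBB3 (0.494) and AREG (0.335) overlapped, as did those of AREG and NRG1 (0.153). The level of NRG1 per kilobase is lowered by the length of its many annotated exons, 18896 bases in all.

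The 6 ligands summed to 1.97 ± 0.0661 RPKM in the control, 2.62 ± 0.297 in OIM and 32.1 ± 3.54 in bFGF (SD, n = 3). HBEGF made up 57.8% of that sum in the control and 51.4% in OIM, and 9.66% in bFGF, where AREG made up 71.1% and EREG 12.1%. With the 5 ligands that are no members added (11 in all), the sums were 2.86 ± 0.241, 3.44 ± 0.329 and 33.0 ± 3.54 RPKM (SD, n = 3). HBEGF was then 39.9% and NRG4 26.0% of the sum in the control, and AREG 69.4% in bFGF. The NRG4 level rests on 43 to 75 counts per control library. Other genes overlap the NRG4 locus, LOC100155488 on the same strand and FBXO22 and LOC110261562 on the opposite strand. EGFR, ERBB2, ERBB3 and ERBB4 summed to 45.9 ± 1.48, 43.8 ± 1.35 and 36.8 ± 0.660 RPKM. EGFR was 75.5% of the receptor sum in the control and 82.3% in bFGF.

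**Figure D3:**
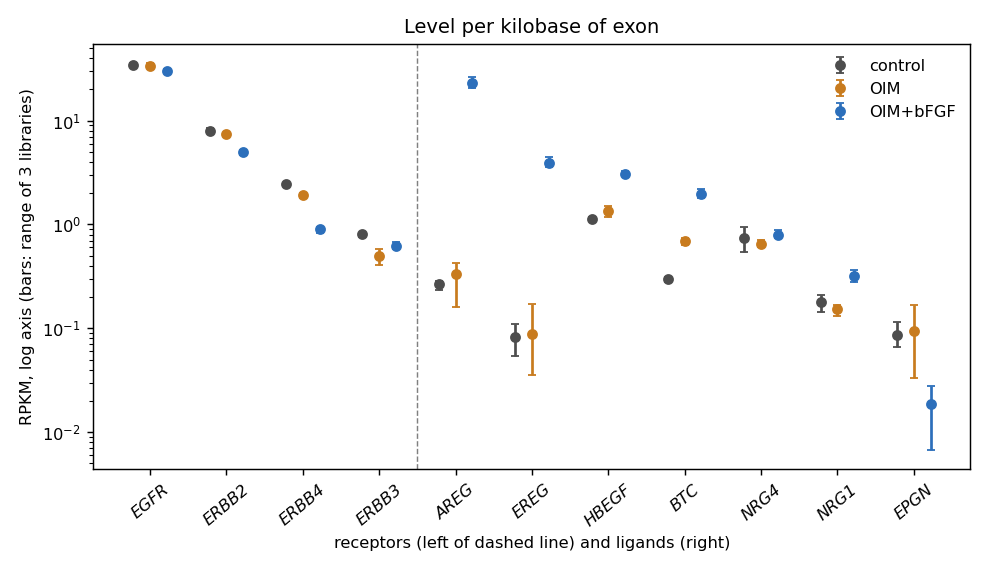
Level per kilobase of exon (RPKM, log axis) of 4 receptors, left of the dashed line, and 7 ligands, with the mean and the range of 3 libraries per group. AREG moves from 0.335 RPKM in OIM to 22.9 RPKM with bFGF, between EGFR and ERBB2, and the 4 receptors keep their order in all groups.

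Markers of other cell types moved with bFGF as well. The summed level of 10 endothelial markers was 74.1 to 76.1 CPM in the control, 88.4 to 90.2 in OIM and 171 to 180 in bFGF. Of the 10, 7 were called higher between bFGF and OIM, against 17.7% of all genes. KDR (52 to 76 counts in bFGF, at most 24 in other libraries) and CLDN5 (16 to 20, at most 17) passed the filter only through bFGF, so their calls add no support. ERG, an endothelial transcription factor, made up most of the summed level, with a mean of 137 CPM in bFGF. PECAM1 had a mean of 11.8 CPM in OIM and 20.7 CPM in bFGF, and VWF 0.303 and 0.228 CPM. All 7 smooth muscle markers were called lower, against 18.4% of all genes, and their sum was 9970 to 13200 CPM in OIM and 1560 to 1740 CPM in bFGF. Macrophage markers summed to 16.9 to 17.7 CPM in OIM and 9.38 to 10.8 CPM in bFGF, with 0 of the 7 tested markers called higher and 2 lower, and CD14, at a mean of 13.5 CPM in OIM and 7.68 CPM in bFGF, made up most of them. The sums of 5 markers of glia were 123 to 133 and 111 to 112 CPM, nearly all of it from PMP22 (128 and 111 CPM). The part of these shifts in the ligand results was not tested.

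AREG, EREG, BTC and EPGN lie side by side on chromosome 8, within 431 kb from the start of EPGN to the end of BTC. EREG (70351316 to 70372530, plus strand) ends 45.4 kb before AREG (70417935 to 70428106, plus strand), and BTC (70645721 to 70697538, minus strand) lies 218 kb beyond AREG. EPGN, which encodes epigen, had 10, 13 and 19 counts in the control, 5, 15 and 26 in OIM and 1, 4 and 3 in bFGF. Summed counts, scaled by library size, gave a ratio of bFGF to OIM of 0.195, with an exact 95% interval of 0.0794 to 0.417 for counting error only. The edgeR call (log2 -2.31, SE 0.77, adjusted p = 0.0125) was lost without OIM replicate 3 (log2 -1.65, adjusted p = 0.109) and without bFGF replicate 1 (log2 -1.92, adjusted p = 0.0628). EPGN did not pass the filter at 1 CPM or in the fit of the 2 groups alone, and has no call there. The main filter kept EPGN only through control and OIM libraries, where it was higher, and its call in the lists and figures carries that limit.

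The 3′ part of MTHFD2L, a mitochondrial folate enzyme gene, overlaps EPGN on the same strand, and it fell too (log2 -1.11, SE 0.20, edgeR adjusted p = 5.24e-05). Farther from AREG, the chemokine genes CXCL2 (log2 1.90), CXCL8 (1.14) and AMCF-II (1.14) were called higher, as were the unnamed coding genes LOC100525396 (1.91) and LOC100520680 (1.29) between them. PPBP, PARM1 and RCHY1 were not called, and THAP6 was lower (-0.69). The non-coding gene LOC106504692 starts 118 bases before EREG on the opposite strand and had estimated counts of at most 12.8 in any library.

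**Figure D4:**
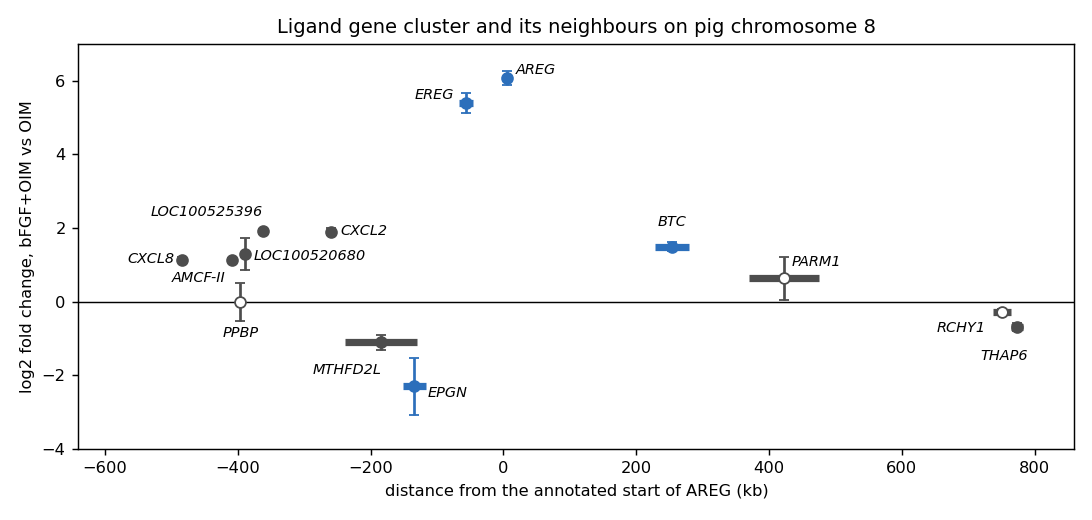
Log2 fold change between bFGF and OIM (points with standard errors, filled where called) of genes around AREG against their distance in kb from the annotated start of AREG, with horizontal bars for the length of each gene and the ligand genes in blue. EREG (5.39) and AREG (6.08) stand above all neighbours, BTC is at 1.49 and EPGN at -2.31.

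The sequences just upstream of the annotated starts of AREG and EREG are shown because these 2 genes had the largest changes. Each window has 150 bases on the plus strand of Sscrofa11.1, chr8:70417785-70417934 for AREG and chr8:70351166-70351315 for EREG. Capitals mark matches to the CRE (TGACGTCA, bound by CREB and ATF proteins), the AP-1 site (TGANTCA), the GC box (GGGCGG) and the TATA box (TATAAA), searched on both strands.
AREG: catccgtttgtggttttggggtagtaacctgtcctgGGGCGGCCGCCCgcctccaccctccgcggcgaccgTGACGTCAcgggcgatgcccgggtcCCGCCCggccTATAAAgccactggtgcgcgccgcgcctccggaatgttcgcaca
EREG: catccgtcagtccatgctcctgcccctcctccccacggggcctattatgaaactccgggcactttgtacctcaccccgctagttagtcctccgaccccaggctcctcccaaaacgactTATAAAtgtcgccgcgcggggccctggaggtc
The AREG window held 1 CRE, which is its own reverse complement, starting 79 bases before the annotated start, a TATA box starting at 44 bases before it, and 3 GC boxes, of which 2 lie end to end. Its GC content was 69.3%. The EREG window held a TATA box starting 32 bases before the start, and its GC content was 61.3%.

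In the 250 bases upstream of the start, 1 of the 9 members (AREG) had a CRE, 2 had a TATA box (AREG and EREG), 6 had a GC box and 0 had an AP-1 site. Of 19525 protein-coding genes, 1.70% had the CRE in such a window, 9.76% the TATA box, 45.9% the GC box and 5.25% the AP-1 site. HBEGF, with 8 GC boxes, and EGFR, with 7, had the most among the members. These are matches of letters and no measurement of binding.

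Of the other genes of the family, ERBB4, the neuregulin receptor that also binds BTC, EREG and HBEGF, had the largest decrease among the receptors between bFGF and OIM. It was at 29.2, 31.4 and 30.8 CPM in the control, at 22.4, 24.7 and 23.9 CPM in OIM and at 11.3, 10.3 and 11.7 CPM in bFGF. The groups did not overlap. The log2 fold change was -1.09 (SE 0.073, edgeR adjusted p = 5.14e-11) between bFGF and OIM, and -0.36 (adjusted p = 0.00106) between OIM and control, under the fold limit. NRG2 and NRG4 were not called, and EGF and NRG3 did not pass the filter.

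Genes that act before and after the receptors were read from 6 further lists, which with the other family genes hold 104 genes, 99 of them tested. Between bFGF and OIM 22 rose and 16 fell (22.2% and 16.2% of those tested, against 17.7% and 18.4% of all genes), and between bFGF and control 23 rose and 17 fell (23.2% and 17.2%, against 18.9% and 20%). With library totals alone the counts were 30 higher and 12 lower against OIM and 33 and 14 against the control. With TMM these shares over all lists are near those of all genes. Between OIM and control 1 rose and 0 fell. The gene called there was ADAM19, a metalloprotease that can cleave neuregulin precursors (log2 0.51, edgeR adjusted p = 3.87e-05), which sits at the fold limit and dropped to 0.48 without control replicate 1, 0.46 without OIM replicate 1 and 0.43 without OIM replicate 3.

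Of 12 genes of ligand release, 1 rose and 1 fell between bFGF and OIM (8.33% each way). FURIN, a proprotein convertase, rose from 145 to 260 CPM (log2 0.84, SE 0.046) and ADAM19 fell from 258 to 121 CPM (log2 -1.10, SE 0.071). ADAM17, the main sheddase of AREG, had a log2 fold change of 0.22. The median of the list was 0.12, and that of all genes -0.003. With library totals alone the list's median was 0.35, and 2 genes were higher, among them ADAM10, another sheddase (log2 0.56, against 0.34 with TMM).

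Of 16 genes that restrain the receptors, 2 rose (12.5%) and 5 fell (31.2%). LRIG3, of a family of transmembrane receptor regulators, fell from 1.21 to 0.329 CPM (log2 -1.87, SE 0.36), and CBLB, a ubiquitin ligase, fell from 171 to 73.7 CPM (log2 -1.21, SE 0.037). DCN, a proteoglycan that can bind EGFR and that also marks valve interstitial cells, fell from 424 to 214 CPM (log2 -0.99, SE 0.036). PTPRK, a receptor phosphatase, rose from 57.1 to 126 CPM (log2 1.14, SE 0.044). The median of the list was -0.16, and with library totals alone it turned to 0.06, with 5 genes higher and 4 lower. That scaling moved all genes up by a median of 0.221, so the list kept its place below them.

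Of 19 tested genes of adaptors and direct effectors, 1 rose (5.26%) and 2 fell (10.5%). SHC3, an adaptor best known from neurons, rose from 2.04 to 18.7 CPM (log2 3.19, SE 0.14), GAB1, a docking protein, fell from 76.4 to 36.5 CPM (log2 -1.07, SE 0.054), and STAT3, a transcription factor, fell from 200 to 121 CPM (log2 -0.72, SE 0.038). Of 17 tested genes of receptor endocytosis, SH3KBP1, a CBL-binding adaptor, rose (log2 1.27, SE 0.077), and VPS4B, an endosomal ATPase, fell by the smallest amount that the limit allows (log2 -0.50, SE 0.044). VPS4B was not called with median-of-ratios size factors or with library totals alone (log2 -0.28). The medians of these lists were -0.22 and -0.10, and they were 0.002 and 0.12 with library totals alone. All genes moved up by a median of 0.221 with that scaling, so neither list changed its place among them.

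The list that moved most was that of genes known to respond quickly to EGF, many of which also respond to FGF and other activators of the ERK pathway. Of its 22 genes, 15 rose (68.2%) and 2 fell (9.09%) between bFGF and OIM, against 17.7% and 18.4% of all genes. The median was 1.24, against -0.003 for all genes. The list was chosen with earlier results of these data known. ETV5, an ETS transcription factor, rose from 1.62 to 10.8 CPM (log2 2.72, SE 0.19), DUSP5, a phosphatase of ERK, from 3.19 to 20.1 CPM (log2 2.65, SE 0.15), and EGR2, a zinc finger factor, from 5.55 to 22.8 CPM (log2 2.03, SE 0.13). FOSB, an AP-1 subunit, fell from 2.42 to 0.411 CPM (log2 -2.55, SE 0.26). FOS, JUNB, EGR3 and KLF10 were not called, and PHLDA1 was lower, though not with library totals alone. MYC was not called (log2 0.43), but was with library totals alone (0.65) and between bFGF and control (0.64).

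Of 9 tested genes of co-receptors and partners at the cell surface, 2 rose (22.2%) and 3 fell (33.3%), with a median of -0.42. With library totals alone the median was -0.20, and CD82, a tetraspanin, was no longer called (log2 -0.39, against -0.61 with TMM). CD9, a tetraspanin that associates with the HBEGF precursor, fell from 116 to 66.4 CPM (log2 -0.81, SE 0.053), and ITGB1, a shared integrin chain, from 3270 to 1860 CPM (log2 -0.81, SE 0.043). CD44, the hyaluronan receptor, rose from 707 to 1170 CPM (log2 0.73, SE 0.043) and SDC1, a heparan sulfate proteoglycan, from 68.0 to 119 CPM (log2 0.81, SE 0.049).

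**Figure D5:**
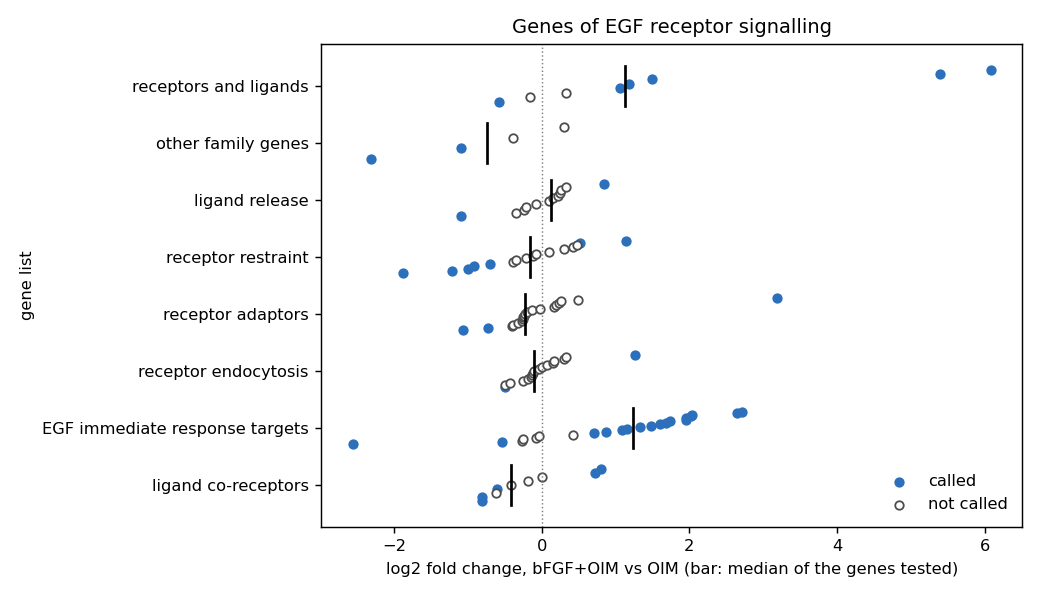
Log2 fold change between bFGF and OIM of each tested gene of the receptors and ligands and of 7 further lists (1 point per gene, filled where called), with a bar at the median of each list. AREG and EREG lie to the right of all other points, 15 of the 22 immediate response genes are called higher, and the 6 lists other than these and the receptors and ligands have medians between -0.74 and 0.12.

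The genes closest in pattern to each member were found by the root mean square difference of centred log2 CPM over the 9 libraries, among 12524 genes. AREG was closest to SST (0.40), the somatostatin gene, and to HMGA1 (0.48), which encodes a chromatin protein. For EREG they were CBLN4 (0.28), a secreted cerebellin, and again HMGA1 (0.33). For BTC they were GDNF (0.21), a neurotrophic factor, and CSMD2 (0.21), and for HBEGF ATIC (0.05), a purine synthesis enzyme, and IFRD2 (0.08). NRG1 was closest to CD207 (0.13) and PDCD2L (0.14), ERBB3 to SLC22A23 (0.08) and PLBD1 (0.13), ERBB2 to QSOX1 (0.04) and FAM46A (0.04), and EGFR to JOSD1 (0.02) and DPYSL2 (0.03). The measure favours genes of small range, so that values for members of different range cannot be set against each other: the range over the libraries was 7.13 for AREG and 0.27 for EGFR on the log2 scale.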

How the data were processed

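RNA of PVICs from 3 groups (control, OIM and bFGF with OIM) was sequenced in 3 libraries per group, grouped and numbered as the labels give them. The labels name Trimmomatic, HISAT2, StringTie, the build Sscrofa11.1 and a stranded kit that removes ribosomal RNA. The paper's methods name Cutadapt, STAR, poly-A selection and a shorter treatment. Which set made the deposited table was not settled, and the counting program and its strand setting are not given in the sources used here. The authors deposited 1 table of counts that were not normalized, with whole numbers for 19535 genes and 6179 circRNAs and estimated counts, of which 44.6% were not whole, for 9888 non-coding transcripts. Its 19 unnamed columns hold no value, and 25 symbols read as dates were not named. Gene counts are whole and needed no rounding.

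Gene counts were filtered by filterByExpr, normalized by TMM and fitted on all 3 groups with the quasi-likelihood test of edgeR 4.0.16 in R 4.3.3, with 6 residual degrees of freedom. P-values were adjusted by Benjamini-Hochberg over 13662 genes, and genes were called at an adjusted p no higher than 0.05 with a log2 fold change no smaller than 0.5 either way. The spread between libraries of a group (edgeR's common coefficient of variation) was 0.0602, and counting error matters mainly for genes with few counts. Standard errors are the log2 fold change over the root of F. TMM factors were 0.937 to 0.967 in control and OIM and 1.10 to 1.11 in bFGF. CPM used TMM library sizes, and RPKM divided CPM by the union of RefSeq exons. Replicates of a group differed beyond sampling noise (mean chi-square per gene 4.69 to 19.1, the largest values being those of OIM replicate 2). As a check of the build, 84.9% of 6178 placed circRNAs had both ends at exon boundaries of Sscrofa11.1, and 0 after a shift of 7 bases. The fit was tested on simulated data.

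The members, the lists and the markers were chosen with earlier results of these data known. All members are named, and from each list the 4 largest absolute changes among genes called between bFGF and OIM, any list gene called between OIM and control, and the 2 nearest genes of each member with a mean of at least 10 counts. ADAM10, ADAM17, CD14, CD82, MYH11, PMP22, VIM, COL1A1, ERG, PECAM1, VWF, KDR, CLDN5, PHLDA1, the uncalled response genes and the neighbours on chromosome 8 were added after their values were seen. Alternatives were scaling by library totals alone or by median-of-ratios size factors, DESeq2 1.42.0, no filter or a filter of 1 CPM, the replicate number as a block, a fit of each 2 groups apart, libraries thinned to 1 depth, a fold limit of 0 or 1, and leaving out 1 library at a time.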

Additional observations from a re-analysis of the deposited data

How the results depend on the processing

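The 24 log2 fold changes of members were read again under 10 other settings and without each of the 9 libraries. The settings with another fold limit reuse the main estimates and cannot change their direction. Leaving out a library of the group outside a comparison can hardly move its values. Of the 456 values, 441 kept their direction and their side of the limits, 6 no longer passed, 4 newly passed and 5 changed sign. The 441 therefore include values that were not free to move. EREG between OIM and control, which was not called, went from 0.14 to -0.0044 in thinned libraries, -0.068 without control replicate 1 and -0.81 without OIM replicate 2, and ranged from -0.81 to 0.51 with libraries left out. With library totals alone EGFR turned to 0.058 (bFGF against OIM) and 0.032 (bFGF against control). The cause was not tested. That scaling moved the median of all genes by 0.221 and 0.225 in these comparisons, and the share of calls that were higher from 49.0% to 68.8% and from 48.5% to 68.1%. It also left 0 members called lower in both, where 1 was called before.

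Without a fold limit, 2 members were called lower between bFGF and OIM and 3 between bFGF and control, and with a limit of 1 none of the 3 comparisons had a member called lower (0 in each). At that limit NRG1 (log2 0.84) was no longer called higher between bFGF and control, which left 4 members higher. List genes called without a fold limit numbered 10 higher and 7 lower (OIM against control), 40 higher and 40 lower (bFGF against OIM), and 42 higher and 46 lower (bFGF against control). With a limit of 1, 0 were higher for OIM against control. In the comparisons of bFGF with OIM and with control, 16 and 17 were then higher and 7 and 9 lower. In thinned libraries 0 list genes were higher between OIM and control. Leaving out libraries gave 0 to 1 list genes higher in that comparison, with 0 without control replicate 1 and without OIM replicate 1, and 0 to 2 lower, with 2 without OIM replicate 2. With libraries left out, AREG between bFGF and OIM ranged from 5.75 to 6.31 and EREG from 5.02 to 6.37.

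The labels number the replicates 1 to 3 in each group, but same-numbered libraries did not deviate together (correlations -0.032 to 0.0035), so the numbers were not read as pairs. A replicate block left the members called between bFGF and OIM at 5 higher and 1 lower, and AREG at 6.07. EPGN and TGFA are limited by depth, with at most 26 and 7 counts in any library.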

Other observations

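Circular RNAs of the family were nearly unseen. Of 6179 circRNAs in the table, 1 lay in EGFR, with 3 junction counts in 1 OIM library and 0 in the others, and 1 in ERBB2, with 2 counts in 1 OIM library and 0 in the others. Both had their ends at exon boundaries of the gene on the same strand. At these counts no comparison between groups was made.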
